A study of Mus musculus with 8 samples.

Results

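WNT ligands, their receptors, their feedback inhibitors and their secreted antagonists were examined in organoids grown from mouse embryonic stomach epithelium with or without an active form of YAP. The genes were chosen by a rule on their symbols, with earlier results of these data known. The symbols cover the Wnt, Fzd, Sfrp, Dkk, Rspo, Dvl, Axin, Nkd and TCF/LEF families, Lrp5, Lrp6, Lgr4 to Lgr6, Ror1, Ror2, Apc, Rnf43, Znrf3, Notum, Porcn, Wls and Wif1. They matched 67 of the 56691 rows of the count table.

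The cultures came from the hindstomach, the glandular part of the stomach, at embryonic day 18.5, and had spent 5 days in growth medium and then 7 days in differentiation medium. The 4 Ctrl libraries have the genotype Shh-Cre and the 4 YAP5SA libraries the genotype Shh-Cre;YAP5SA, so both groups carry Cre recombinase driven from the Shh locus, which is active in the early foregut epithelium. YAP5SA is a form of the coactivator YAP with serine-to-alanine changes that let it escape inhibition by the Hippo kinases. The labels do not say which promoter drives it, whether replicates came from separate embryos, or whether the media contained WNT or R-spondin protein, so the p-values rest on the spread among these libraries, which may be technical.

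WNT proteins are secreted lipid-modified ligands that bind Frizzled receptors. With an LRP coreceptor they stop the Axin and APC complex from degrading beta-catenin, which then works with TCF/LEF factors on target genes. R-spondins, through LGR receptors, protect Frizzled from the ubiquitin ligases RNF43 and ZNRF3. In the adult stomach this signal maintains gland progenitors, and its targets Lgr5 and Axin2 mark such cells.

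Total counts were 17387372 to 25841256 per library. Xist had 8436 to 12237 counts in the Ctrl and 0 to 8 in the YAP5SA libraries, and 4 Y-linked genes were at 0 throughout Ctrl but at 880 to 3854 counts in YAP5SA. Genotype and the sex of the source cells therefore cannot be told apart in any difference below. Yap1, whose row may hold reads of the transgene, was at 118 ± 11.04 in Ctrl libraries and 140 ± 2.21 in YAP5SA libraries (SD, n = 4 each), in CPM, the count relative to the library total after TMM scaling between libraries. The summed level of 8 epithelial markers was 15821 to 17320 CPM in Ctrl and 9602 to 11297 CPM in YAP5SA. Of these 8, 4 fell, among them the abundant Krt8 and Krt19, and 3 rose, with Epcam at 296 ± 26.4 and 591 ± 24.0 CPM. That of 16 markers of gastric mesenchyme, a usual source of WNT ligands, was 0.888 to 1.58 CPM in Ctrl and 24.3 to 29.1 CPM in YAP5SA. Nearly all of it in YAP5SA was Vim, whose level there was 25.6 ± 2.10 CPM against 0.739 ± 0.572 in Ctrl, while Col1a2, Lum, Barx1, Nkx3-2, Twist2 and Postn had 0 counts in all libraries. Pdgfra, which was not tested, had 8 counts over Ctrl and 36 over YAP5SA. Pdgfrb had 2 and 20, Foxf1 1 and 13, and Acta2 0 and 7, all of the last in YAP5SA replicate 4. Col1a1 went the other way with 9 and 4, and Des with 14 and 9. The remaining Col3a1, Dcn and Foxf2 had at most 3 counts in a group, and none of these genes was tested. The summed level of the immune list was 8.57 to 17.9 CPM in Ctrl and 66.3 to 73.1 CPM in YAP5SA. Csf1r, which rose from 25 to 2629 counts in all, and Cd68, which rose from 955 to 3106, carried nearly all of it, while Tyrobp and Adgre1 had 0 counts in all libraries. The part of these markers in the differences below was not tested.

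Of the 67 genes, 34 passed the filter on low counts, 21 had counts but did not pass, and 12 had 0 counts in all libraries. Of the 34 tested, 24 were called, meaning an edgeR adjusted p under 0.05, with 13 higher and 11 lower in YAP5SA. Among all 13812 genes tested 64.5% were called, 33.1% higher and 31.3% lower, so the called share of the WNT genes, 70.6%, lay near the background. The groups did not overlap for 23 of the 34, against 58.7% of all genes tested. Changes of at least 2-fold were called for 14 of the 34, 7 in each direction. Among all genes tested 25.5% were so called, 14.0% higher and 11.5% lower, a smaller share than among the WNT genes in each direction. The median log2 fold change was -0.01, and 0.02 over all genes tested. Scaling by library size alone gave 15 higher and 8 lower. Over all genes that scaling gave 5742 higher and 3201 lower, against 4577 and 4330, and moved the median log2 fold change to 0.19. Of the 34, 5 (Wnt2, Fzd2, Ror1, Lgr5 and Tcf7l1) reached the filter's minimum in all 4 YAP5SA but not in all 4 Ctrl libraries. Wnt2, Ror1 and Lgr5 reached it in 0 Ctrl libraries, Fzd2 in 1 and Tcf7l1 in 3. No gene passed through Ctrl alone. Wnt2, Ror1, Lgr5 and Fzd2 are among the rises of at least 2-fold. The counts of rises, here and by role, and the p-values of these genes are therefore not independent of the filter.

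**Figure D1:**
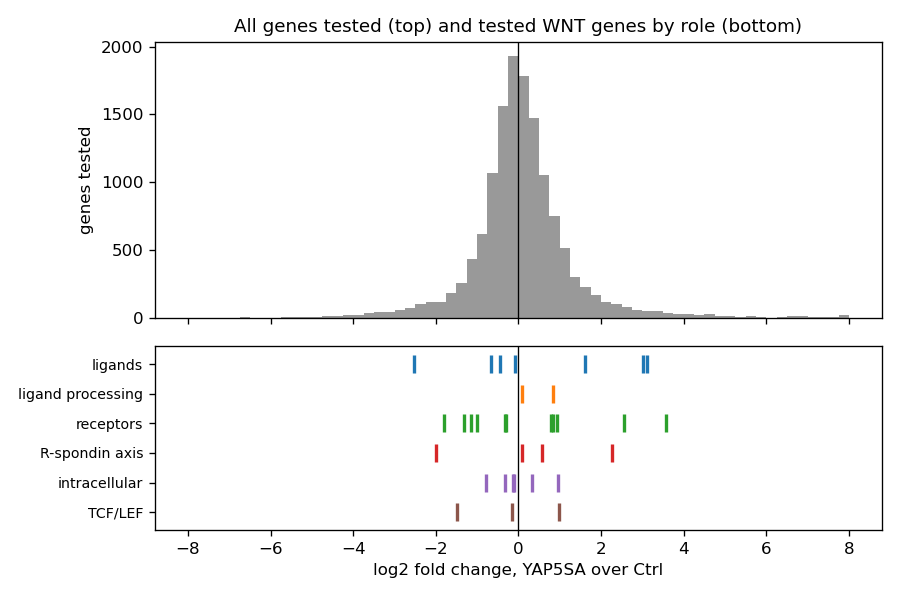
Log2 fold changes of YAP5SA over Ctrl for all 13812 genes tested (grey histogram, values beyond the axis counted in the end bins) and for the tested WNT genes by role (1 tick per gene, Wnt2 left out because its Ctrl counts are 0). Most roles have members on both sides of 0.

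Promoter sequences of 4 called genes with changes of over 2-fold are shown, since YAP acts on DNA through TEAD factors and since such genes lie in both directions. Each is the 250 bases before a transcription start in RefSeq (GRCm38.p6), 5′ to 3′ on the gene's strand, with matches to the TEAD motif GGAATG or its complement CATTCC in capitals. Wnt7a (chr6:91411354-91411603, minus strand) and Wnt9a (chr11:59306680-59306929, plus strand) encode ligands and rose. Lgr4 (chr2:109917397-109917646, plus strand) and Fzd5 (chr1:64737751-64738000, minus strand) encode receptors and fell.
Wnt7a: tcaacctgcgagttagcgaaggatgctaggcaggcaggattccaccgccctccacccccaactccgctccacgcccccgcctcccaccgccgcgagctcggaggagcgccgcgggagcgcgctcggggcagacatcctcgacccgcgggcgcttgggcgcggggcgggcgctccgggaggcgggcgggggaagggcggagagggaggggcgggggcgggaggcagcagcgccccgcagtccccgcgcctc
Wnt9a: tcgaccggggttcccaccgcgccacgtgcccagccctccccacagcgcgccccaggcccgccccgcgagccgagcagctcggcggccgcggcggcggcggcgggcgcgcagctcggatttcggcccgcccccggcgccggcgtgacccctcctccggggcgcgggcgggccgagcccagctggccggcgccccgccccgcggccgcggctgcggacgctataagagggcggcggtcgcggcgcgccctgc
Lgr4: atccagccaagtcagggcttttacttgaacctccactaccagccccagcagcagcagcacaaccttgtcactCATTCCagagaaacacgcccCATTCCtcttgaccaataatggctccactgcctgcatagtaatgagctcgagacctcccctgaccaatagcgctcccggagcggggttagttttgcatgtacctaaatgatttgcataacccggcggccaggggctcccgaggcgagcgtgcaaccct
Fzd5: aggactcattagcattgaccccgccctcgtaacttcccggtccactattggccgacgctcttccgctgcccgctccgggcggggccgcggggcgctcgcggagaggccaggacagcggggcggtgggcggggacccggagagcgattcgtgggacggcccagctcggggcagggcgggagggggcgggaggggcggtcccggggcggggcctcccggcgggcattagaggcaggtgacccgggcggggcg

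The Lgr4 window held the TEAD letters 2 times, starting 178 and 158 bases before the start, and the other windows shown held none. RefSeq promoters were matched for 45 of the 67 genes, with 54 windows. The 22 genes without a window include Wnt7b, Wnt5a, Fzd2, Fzd3, Lrp5 and Lgr5, all called and changed at least 2-fold. The comparison therefore does not cover them. Windows of Wnt2, Fzd4, Ror1 and Tcf7l2, also changed at least 2-fold but not shown, held no TEAD letters. The TEAD letters were in 2 of the 54, those of Lgr4 and Dvl2, against 12.6% of all 32851 windows. The TCF/LEF motif CTTTGAT, searched on both strands and not overlapping the TEAD letters, was in 2 of the 54, of Wnt11 and Wnt5b, against 3.21% of all windows. The 4 windows shown were 77.6% (Wnt7a), 84.4% (Wnt9a), 55.6% (Lgr4) and 76.4% (Fzd5) G or C, against a median of 52.4% over all windows.

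Among the ligands, Wnt7b, Wnt7a and Wnt9a were several-fold higher in YAP5SA and Wnt5a was lower. Wnt7b encodes an epithelial ligand that signals through Frizzled and LRP5/6 in lung and other endoderm-derived organs. It was at 54.2, 50.4, 52.4 and 60.5 CPM in Ctrl replicates 1 to 4 and at 443, 434, 443 and 558 CPM in YAP5SA replicates 1 to 4. The groups did not overlap, and YAP5SA replicate 4 was the highest. It rose 8.64-fold, by 3.11 (SE 0.10) on the log2 scale, with an edgeR adjusted p of 1.09e-11. Its close paralogue Wnt7a was at 30.0, 28.5, 25.1 and 41.4 CPM in Ctrl and at 86.7, 87.2, 90.9 and 118 CPM in YAP5SA, again with replicate 4 highest in each group. It rose by 1.62 (SE 0.14) on the same scale, with an adjusted p of 2.96e-07. Wnt9a, a ligand of the beta-catenin branch in several tissues, was at 2.09, 3.55, 2.79 and 2.62 CPM in Ctrl and at 19.3, 23.5, 21.3 and 24.9 CPM in YAP5SA. It rose 8.05-fold, by 3.01 (SE 0.16, adjusted p = 1.47e-09) on the log2 scale.

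Wnt5a, the main ligand of the beta-catenin-independent branch, went the other way. Its level was 11.6, 10.0, 11.2 and 11.4 CPM in Ctrl and 1.91, 1.25, 2.08 and 2.41 CPM in YAP5SA. The 4 Ctrl values lay close together and every YAP5SA value was below them, a log2 fold change of -2.52 (SE 0.19, adjusted p = 5.54e-08). Wnt10a was at 4.32 to 8.51 CPM in Ctrl and 3.48 to 5.06 CPM in YAP5SA, so the groups overlapped. It was called lower at -0.67 (SE 0.22, adjusted p = 0.0157), but not without YAP5SA replicate 2 (-0.59, adjusted p = 0.0503) or with library size scaling (-0.50, adjusted p = 0.0668). Wnt4 was at 33.1 ± 2.64 and 31.1 ± 5.35 CPM (SD, n = 4 each), with a log2 fold change of -0.09 (SE 0.12, adjusted p = 0.518). Wnt11 was at 10.3 ± 2.33 and 7.48 ± 2.03 CPM and was not called (-0.46, SE 0.20, adjusted p = 0.0655). It was called without Ctrl replicate 1 (-0.56, adjusted p = 0.0336), Ctrl replicate 4 (-0.54, 0.0459) or YAP5SA replicate 4 (-0.64, 0.0138).

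A further pair of ligand genes had counts in every YAP5SA library and in no Ctrl library. Wnt2, a ligand usually made by mesenchyme, had 14, 15, 15 and 21 counts in YAP5SA and 0 throughout Ctrl, at least 20.2-fold higher against a floor of 3 counts over the Ctrl group (edgeR adjusted p = 2.54e-05). Wnt6 had 6, 8, 7 and 6 counts in YAP5SA, again beside 0 throughout Ctrl. It did not pass the filter, and its bound is at least 8.40-fold higher. The floor allows for counting error of the 0 in Ctrl and takes the YAP5SA count as exact, so the true bounds are somewhat lower. Floors and intervals here cover no spread among libraries. The Wnt2 level in YAP5SA was 0.792 ± 0.132 CPM, or 0.351 CPM per kilobase of exons, where Wnt7b was at 95.9.

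In RefSeq no protein-coding gene lies between Wnt6 and Wnt10a, between Wnt3a and Wnt9a, between Wnt9b and Wnt3, or between Wnt10b and Wnt1. Wnt6 went from 0 to 27 counts in all while Wnt10a went from 516 to 348. Wnt9a went from 211 to 1823 counts while Wnt3a had 6 and 0. Wnt3 had 1 count in each group, and Wnt9b and Wnt1 had 0.

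The remaining ligands were near or at 0. Wnt2b had 20 counts over Ctrl, 19 of them in replicates 2 and 4, and 17 over YAP5SA. Wnt10b had 7 and 3 counts (a Ctrl to YAP5SA ratio of 2.50, 95% counting interval 0.571 to 14.98), Wnt16 had 4 and 2, and Wnt5b had 0 and 6, all 6 in YAP5SA replicate 4. Wnt1, Wnt8a, Wnt8b and Wnt9b were at 0 everywhere, and 3 counts, the limit a 0 allows, are 0.125 to 0.178 CPM in these libraries.

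**Figure D2:**
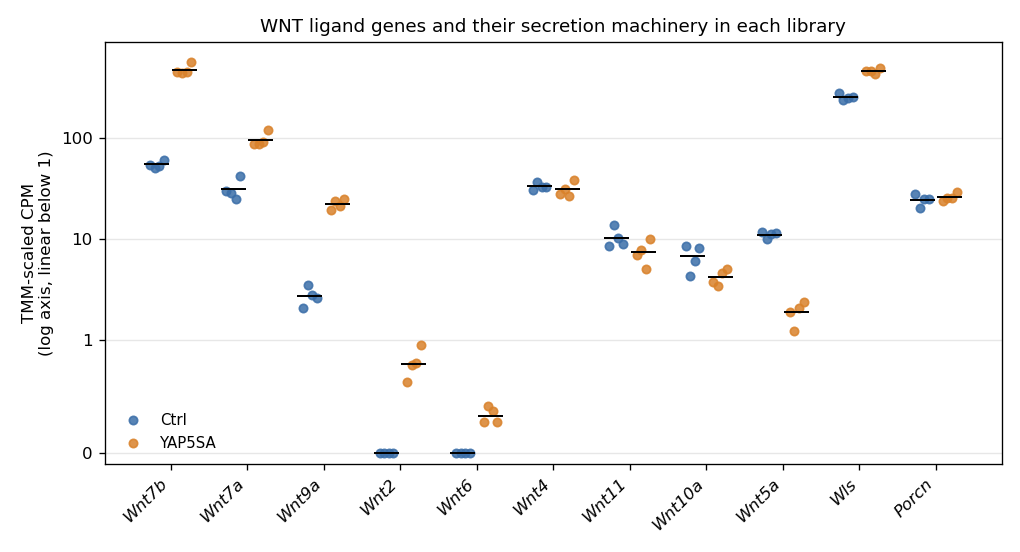
TMM-scaled CPM (symmetric log axis, linear below 1) of ligand genes and of Wls and Porcn in each library, with Ctrl in blue and YAP5SA in orange (points: libraries, black lines: group means, n = 4 each). Wnt7b, Wnt7a, Wnt9a and Wls were higher in every YAP5SA library than in every Ctrl library, Wnt5a was lower, and Wnt2 and Wnt6 were at 0 in every Ctrl library.

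The makeup of the ligand pool was compared per gene length, as TMM-scaled CPM per kilobase of exons in GENCODE M21, whose gene models may differ from those the authors counted on. In Ctrl the level of Wnt7b was 11.1 ± 0.896, of Wnt7a 9.85 ± 2.23 and of Wnt4 7.89 ± 0.630 CPM per kilobase. Wnt7b was above Wnt7a in 3 of the 4 Ctrl libraries, and Wnt7a above Wnt4 in 4 of 4, by little in replicates 2 and 3. Wnt10a followed at 2.74 ± 0.783, Wnt11 at 2.49 ± 0.563, Wnt5a at 1.41 ± 0.0927 and Wnt9a at 0.830 ± 0.182 CPM per kilobase. Wnt10a was above Wnt11 in 3 of the 4 libraries. In YAP5SA the level of Wnt7b was 95.9 ± 12.03 CPM per kilobase, well above that of Wnt7a at 30.2 ± 4.68. Next were Wnt4 at 7.40 ± 1.28 and Wnt9a at 6.68 ± 0.739 CPM per kilobase, with Wnt4 above Wnt9a in 3 of the 4 libraries.

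Of the ligand sum per kilobase, Wnt7b made up 28.9% to 31.7% in Ctrl and 65.8% to 67.4% in YAP5SA. Wnt4 made up 19.0% to 24.5% and 4.69% to 5.53%. Its level did not differ beyond the spread, so its smaller share goes with the larger sum. The summed ligand level was 150 ± 11.3 CPM in Ctrl and 634 ± 83.0 CPM in YAP5SA, 4.22 times as high, most of it Wnt7b. In bulk RNA of this kind a change in the number of cells that make a transcript and a change in its amount per cell cannot be told apart.

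Of the genes for ligand secretion, Wls rose and Porcn was not called. Wls, the carrier that brings WNT proteins to the cell surface, was at 275, 237, 245 and 254 CPM in Ctrl and at 452, 449, 423 and 484 CPM in YAP5SA. No YAP5SA value was as low as any Ctrl value, and the log2 fold change was 0.84 (SE 0.07, adjusted p = 2.41e-07). Porcn, the X-linked gene of the acyltransferase that adds the ligands' lipid, was at 24.5 ± 3.27 and 25.8 ± 2.12 CPM (0.08, SE 0.11, adjusted p = 0.552). Notum, whose product removes that lipid and so inactivates WNT, had 0, 6, 10 and 6 counts in Ctrl and 2, 1, 1 and 1 in YAP5SA and was not tested.

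Receptor genes split into a group that rose and a group that fell, and 10 of the 11 tested were called (5 higher and 5 lower), where 64.5% of all genes tested were. Fzd2, Fzd1, Fzd6, Fzd7 and the receptor kinase gene Ror1 were higher in YAP5SA. Fzd5, Fzd4, Fzd3, Lrp5 and Lrp6 were lower, and Fzd8 was not called. The frizzleds are a family of membrane proteins with a cysteine-rich domain that binds WNT.

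Fzd5, a receptor expressed in gut epithelium, had the largest fall among the frizzled and coreceptor genes tested. It was at 86.3, 118, 105 and 97.7 CPM in Ctrl and 26.4, 28.2, 35.1 and 26.4 CPM in YAP5SA (log2 fold change -1.81, SE 0.11, adjusted p = 8.18e-09). Every YAP5SA library was below every Ctrl library. Fzd4, which also binds the ligand norrin, was at 85.8, 143, 124 and 97.3 CPM in Ctrl and 53.9, 55.0, 55.6 and 38.4 CPM in YAP5SA (-1.15, SE 0.15, adjusted p = 1.62e-05). Here Ctrl replicates 1 and 4 were the lower ones of their group and YAP5SA replicate 4 the lowest of all. Fzd3, known from axon guidance and planar polarity, was at 23.8 ± 1.53 and 11.9 ± 0.990 CPM (-1.003, SE 0.10, adjusted p = 1.43e-06). Fzd8 was at 7.73 ± 1.57 and 6.13 ± 0.801 CPM (-0.33, SE 0.17, adjusted p = 0.111).

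Of the genes that rose, Fzd2 started from a very low level. It was at 0.676, 0.414, 0.208 and 0.335 CPM in Ctrl, from 12, 7, 5 and 6 counts, and at 3.99, 3.90, 5.11 and 6.29 CPM in YAP5SA. That is 11.8-fold, or 3.58 (SE 0.33, adjusted p = 4.26e-07) on the log2 scale. Fzd7, a receptor of gut stem cells, was at 31.5, 21.2, 22.2 and 23.9 CPM in Ctrl and 47.9, 49.1, 47.6 and 42.2 CPM in YAP5SA (0.92, SE 0.12, adjusted p = 1.11e-05). Fzd6, at 38.9 ± 2.43 and 67.1 ± 9.87 CPM, rose by 0.79 (SE 0.10), and Fzd1, at 12.4 ± 1.30 and 22.1 ± 2.16 CPM, by 0.84 (SE 0.11). In none of these 4 genes did the groups overlap. Fzd9 had 6 counts in 1 Ctrl library and 9 over YAP5SA, and Fzd10 had 9 counts over Ctrl and 0 over YAP5SA, and neither was tested.

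Per kilobase of exons the order of the frizzled levels differed between the groups. In Ctrl the highest were Fzd4 at 16.7 ± 3.86 and Fzd5 at 14.7 ± 1.91 CPM per kilobase, then Fzd6 at 8.07 ± 0.504 and Fzd7 at 5.45 ± 1.03. Fzd4 was above Fzd5 in 4 of 4 libraries, although their SDs overlap. That order rests on the gene lengths. In plain CPM Fzd5 was slightly above Fzd4 in Ctrl replicates 1 (86.3 against 85.8) and 4 (97.7 against 97.3). In YAP5SA they were Fzd6 at 13.9 ± 2.05, Fzd7 at 10.3 ± 0.674, Fzd4 at 7.55 ± 1.23 and Fzd1 at 5.27 ± 0.516 CPM per kilobase, with Fzd5 next at 4.20 ± 0.598 and below Fzd1 in 4 of 4 libraries. Fzd4 made up 26.8% to 37.1% of the frizzled sum per kilobase in Ctrl and 12.5% to 18.6% in YAP5SA. Fzd5 made up 26.2% to 29.7% and 8.38% to 11.2%, and Fzd6 13.4% to 18.2% and 27.5% to 37.2%. The frizzled sum itself was 51.2 ± 4.48 and 44.6 ± 1.01 CPM per kilobase.

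**Figure D3:**
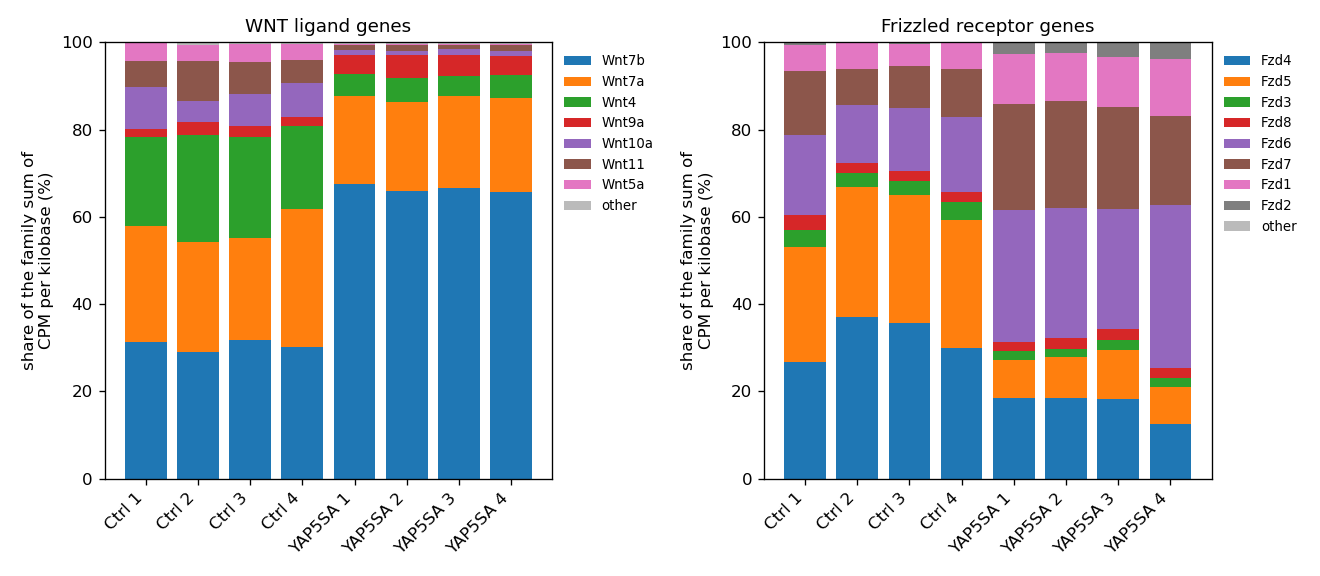
Share of each gene in the sum over its family of TMM-scaled CPM per kilobase of exons, for the 19 ligand genes (left) and the 10 frizzled genes (right), with 1 stacked bar per library. Wnt7b makes up 65.8% to 67.4% of the ligand sum in YAP5SA, and the shares of Fzd4 and Fzd5 are smaller and those of Fzd6 and Fzd7 larger there than in Ctrl.

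The coreceptor genes fell unequally. Lrp5 was at 183, 222, 207 and 228 CPM in Ctrl and at 86.2, 74.3, 90.4 and 86.6 CPM in YAP5SA (-1.32, SE 0.09, adjusted p = 1.45e-08), and the groups lay far apart. Lrp6, its close relative in the same signalling complex, was at 120 ± 10.1 and 97.4 ± 4.50 CPM (-0.30, SE 0.08, adjusted p = 0.00374). The Lrp6 call was lost with library size scaling (-0.12, adjusted p = 0.176). Ror1, which encodes a WNT5A receptor kinase, had 2, 3, 0 and 9 counts in Ctrl and 12, 16, 28 and 36 in YAP5SA. Its log2 fold change was 2.55 (SE 0.65, adjusted p = 0.00343), and 3.58 without Ctrl replicate 4, which held most of the Ctrl counts. Its paralogue Ror2 had 7 and 8 counts and was not tested.

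The LGR receptors for R-spondin moved in opposite directions from very unequal levels. Lgr4, the widely expressed member of the family, was at 148, 197, 176 and 171 CPM in Ctrl and at 41.2, 40.4, 44.7 and 46.5 CPM in YAP5SA. It was 4.005-fold lower, a log2 fold change of -2.001 (SE 0.09, adjusted p = 3.48e-10). Lgr5, a WNT target and stem cell marker, had 9, 6, 3 and 3 counts in Ctrl and 30, 25, 31 and 26 in YAP5SA. It rose by 2.27 (SE 0.41, adjusted p = 0.000266), and every YAP5SA library was above every Ctrl library. Lgr4 made up 97.0% to 97.9% of the LGR sum per kilobase in YAP5SA and 99.4% to 99.8% in Ctrl, and the sum of the 3 genes was 174 ± 19.8 CPM in Ctrl and 44.96 ± 3.03 CPM in YAP5SA. Lgr6 had 29 and 30 counts and was not tested.

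The R-spondins, ligands of the LGR receptors, had at most 1 count in any library. Rspo2 and Rspo3 had 0 counts in all libraries, Rspo1 had 1 count in YAP5SA and Rspo4 had 1 count in each group. Rnf43, a ubiquitin ligase that removes Frizzled from the surface and is itself a WNT target, was at 18.03, 19.9, 17.95 and 19.3 CPM in Ctrl and 27.1, 24.9, 25.7 and 33.0 CPM in YAP5SA (0.56, SE 0.11, adjusted p = 0.000399). The groups did not overlap. Its partner Znrf3 was at 6.26 ± 1.05 and 6.67 ± 0.825 CPM (0.10, SE 0.17, adjusted p = 0.632).

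**Figure D4:**
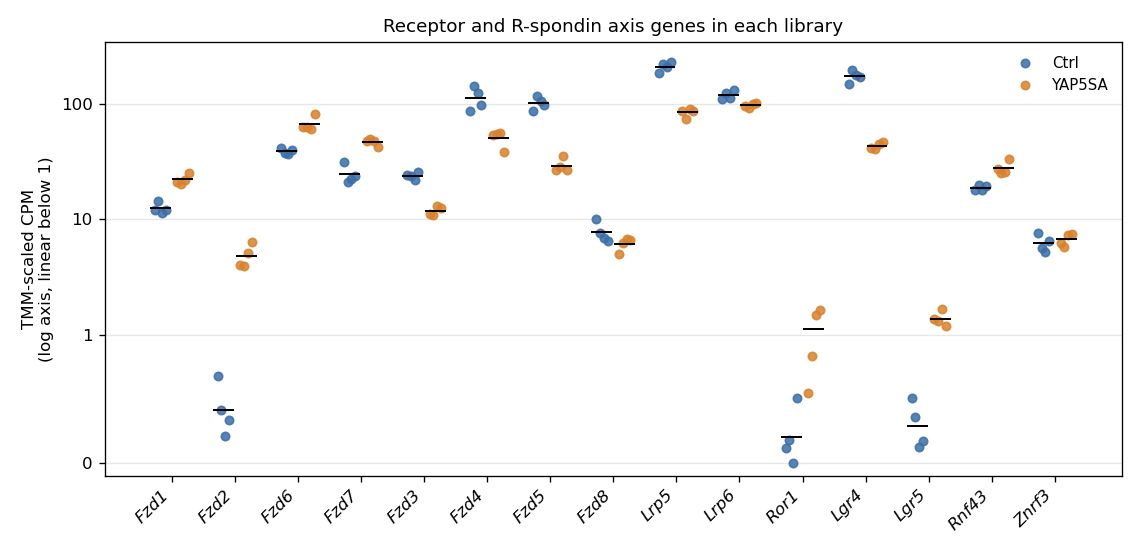
TMM-scaled CPM (symmetric log axis, linear below 1) of receptor, coreceptor and R-spondin axis genes in each library, with Ctrl in blue and YAP5SA in orange (points: libraries, black lines: group means, n = 4 each). Lgr4, Lrp5, Fzd5 and Fzd4 were lower and Fzd2, Fzd6, Fzd7 and Lgr5 higher in every YAP5SA library than in every Ctrl library.

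Secreted antagonists, most of which bind WNT proteins (SFRP, WIF1) or LRP5/6 (DKK1, DKK2 and DKK4), were at or near 0 in both groups. None of the 10 was tested. Dkk1, Dkk2, Dkk4, Sfrp2 and Sfrp5 had 0 counts in all libraries. Sfrp1 had 8, 11, 6 and 4 counts in Ctrl and 6, 4, 0 and 1 in YAP5SA. Wif1 had 6 counts, all in Ctrl replicate 1. Dkk3 had 4 and 5 counts, Sfrp4 had 4 and 1, and Dkkl1 had 1 and 4. The summed level of the 10 genes was 0.279 to 0.902 CPM in Ctrl and 0.106 to 0.364 CPM in YAP5SA.

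Of the 6 tested genes for proteins inside the cell, Apc and Axin1 fell, Axin2 rose and the 3 Dishevelled genes were not called. Apc, a scaffold of the complex that degrades beta-catenin, was at 92.9, 116, 100 and 118 CPM in Ctrl and at 61.6, 57.5, 68.3 and 60.9 CPM in YAP5SA (-0.78, SE 0.09, adjusted p = 4.12e-06). Axin1, the constitutive Axin, was at 59.6 ± 5.97 and 47.2 ± 3.46 CPM (-0.34, SE 0.09, adjusted p = 0.00466), and was not called with library size scaling (-0.16, adjusted p = 0.15). Axin2, which WNT signalling induces as a brake on itself, had 22, 17, 15 and 19 counts in Ctrl and 55, 27, 28 and 48 in YAP5SA. Its CPM values did not overlap (0.625 to 1.24 and 1.40 to 2.49), and its log2 fold change was 0.97 (SE 0.32, adjusted p = 0.0164). The call was lost when Ctrl replicate 3 was left out (0.77, adjusted p = 0.0627), and also when YAP5SA replicate 1 was (0.80, adjusted p = 0.0684). The feedback genes Nkd1 (6 and 3 counts) and Nkd2 (4 and 6) were not tested.

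The Dishevelled genes, whose products carry the signal from Frizzled, were not called. Dvl1 was at 63.8 ± 9.51 and 58.3 ± 4.88 CPM (-0.13, adjusted p = 0.292), Dvl3 at 20.7 ± 2.98 and 19.1 ± 2.43 CPM (-0.11, adjusted p = 0.443) and Dvl2 at 6.51 ± 0.707 and 8.21 ± 1.07 CPM (0.33, adjusted p = 0.0664). Dvl2 was at 0.51 (adjusted p = 0.00934) with library size scaling and 0.39 (adjusted p = 0.0374) with upper quartile scaling.

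Of the TCF/LEF factors, which take beta-catenin to DNA, Tcf7l2 was the most abundant in Ctrl and fell. It was at 18.5, 19.0, 20.7 and 17.9 CPM in Ctrl and 6.35, 6.50, 7.34 and 7.06 CPM in YAP5SA (-1.48, SE 0.11, adjusted p = 6.65e-08), with no overlap. Tcf7l1, mostly a repressor, was at 0.564, 2.43, 1.999 and 0.335 CPM in Ctrl and 2.18, 3.69, 2.24 and 2.51 CPM in YAP5SA. Ctrl replicates 2 and 3 lay among the YAP5SA values and Ctrl replicates 1 and 4 far below, and the log2 fold change of 0.97 (SE 0.46, adjusted p = 0.0754) was not called. It was called without Ctrl replicate 2 (1.36, adjusted p = 0.022) or Ctrl replicate 3 (1.24, adjusted p = 0.0498). Tcf7 was at 1.46 ± 0.726 and 1.30 ± 0.228 CPM (-0.15, adjusted p = 0.71), and Lef1 had 0 counts in all libraries. Tcf7l2 made up 65.6% to 78.6% of the TCF/LEF sum per kilobase in Ctrl and 33.1% to 47.2% in YAP5SA.

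**Figure D5:**
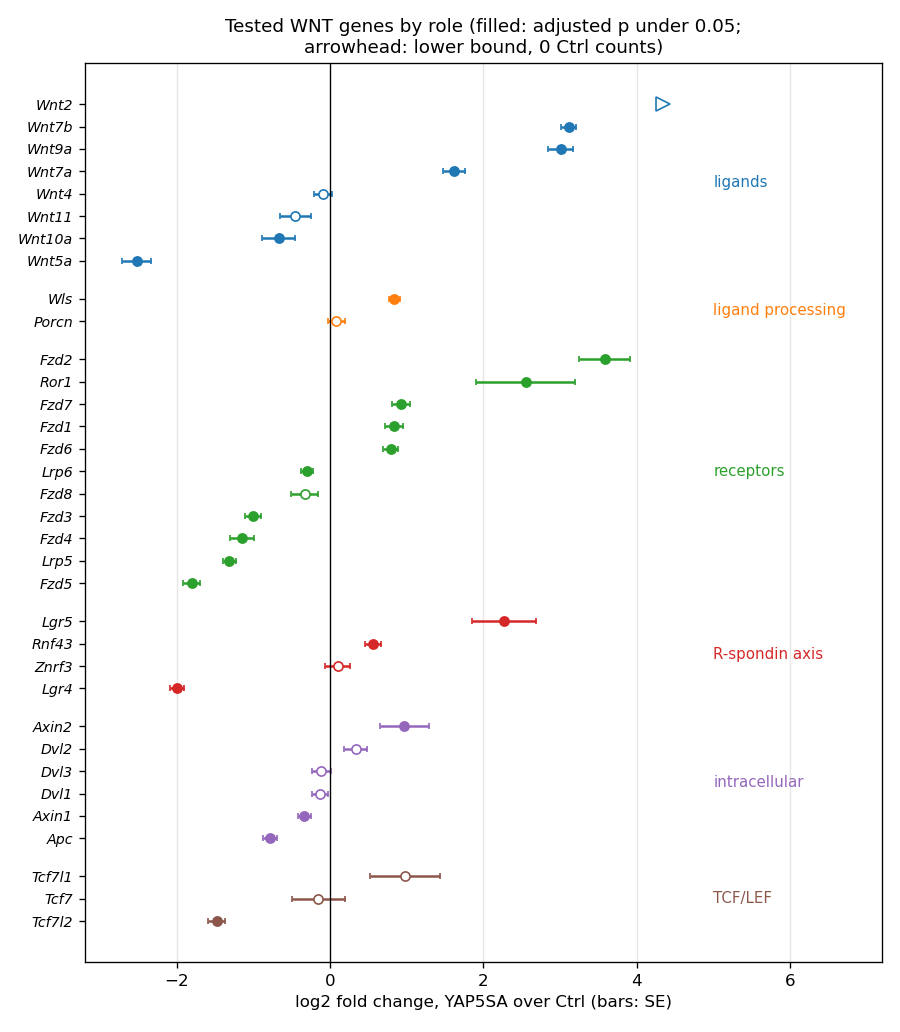
Log2 fold change of YAP5SA over Ctrl with its SE for the 34 tested genes, by role (filled: edgeR adjusted p under 0.05). The open arrowhead for Wnt2 marks the bound of 20.2-fold against a floor of 3 Ctrl counts, on the log2 scale, since its Ctrl counts are 0.

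Other genes of the pathway, 56 from general knowledge outside the symbols above, gave 45 tested, with 13 higher, 14 lower and 18 not called. The called share was 60%, against 64.5% of all genes tested. Their median log2 fold change was -0.09. Named by smallest p, Gpc6, a glypican, rose by 7.36 (SE 0.36) from 5 Ctrl counts to 964 in YAP5SA, and Csnk1e, a casein kinase that acts on Dishevelled, rose by 1.55 (SE 0.08). The corepressor gene Tle3 fell by 1.47 on the log2 scale. Kremen1, whose product binds DKK and LRP6, rose by 1.02 (SE 0.09), and the WNT coreceptor genes Ryk and Ptk7 rose by 0.75 (SE 0.07) and 1.05 (SE 0.11). Adjusted p-values of these 6 were at most 9.64e-07. Ctnnb1, the gene of beta-catenin, comes next by that order and was chosen with its values in view. It fell from 2031 ± 165 to 1167 ± 104 CPM (-0.80, SE 0.09, adjusted p = 1.76e-06). Gpc6 had at most 3 counts in any Ctrl library, so it passed the filter through YAP5SA alone. The Gpc6 p-value, and the count of rises in this list, are therefore not independent of the filter.

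Of 28 commonly used target genes outside the symbols above, 21 were tested, with 9 higher, 5 lower and 7 not called and a median log2 fold change of 0.21. The called share was 66.7%, near the 64.5% of all genes tested. Many of them respond to other signals as well. The adhesion receptor gene Cd44 rose by 2.12 (SE 0.10), Vegfa by 2.08 (SE 0.13), the matrix protease gene Mmp7 by 6.69 (SE 0.47) from 4 Ctrl counts, and Bmp4 by 3.25 (SE 0.27). The ion transporter gene Slc12a2 fell by 0.77 and Tcim fell by 1.73 on the log2 scale. Adjusted p-values of these 6 were at most 4.22e-06. Mmp7 had at most 3 counts in any Ctrl library, so it passed the filter through YAP5SA alone. Bmp4 was under the filter's minimum in Ctrl replicate 4, with 8 counts. The p-values of Mmp7 and Bmp4, and the count of rises in this list, are therefore not independent of the filter. Among targets less shared with other pathways, Sp5 was at 10.4 ± 1.82 and 8.52 ± 2.22 CPM (-0.28, adjusted p = 0.222), and Tnfrsf19 rose by 2.31 (SE 0.33, adjusted p = 3.25e-05). Both were chosen with their values in view.

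For 9 tested genes the exons overlap those of another gene in GENCODE M21, and the strand setting of the counting is not given in the sources used here. The partners' own rows were small next to the member in each case but 1. AU022754, on the other strand of Wnt7b, had 28 and 42 counts against 4156 and 38698 for Wnt7b. The exception was Dvl2, with 496 and 670 counts beside Acadvl with 5197 and 5497, so reads of these genes may be split uncertainly.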

How the data were processed

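RNA of 8 organoid cultures was sequenced, 4 of genotype Shh-Cre (Ctrl) and 4 of Shh-Cre;YAP5SA. The authors deposited raw counts of reads per gene, not normalized, with 1 column per library. Build mm9 and the tools HTSeq 0.6.1, HISAT2 2.0.1 and cutadapt are named in the submitters' processing notes. Annotation and strand setting: not given in the sources used here. Groups and replicate numbers come from the sample titles, and no label names a batch.

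The test was edgeR 4.0.16 (R 4.3.3) on all genes kept by filterByExpr (minimum count 10, minimum total 15). Libraries were scaled by TMM, and the two-sided quasi-likelihood F test had no covariate. P-values were adjusted by Benjamini-Hochberg across the 13812 genes tested, and genes under 0.05 were called. An SE is the log2 fold change over the root of F, and SDs are of scaled CPM over 4 libraries. A group at 0 counts is set to 3 counts in all for a fold, with TMM-scaled totals. The procedure was tested on simulated data with far fewer changed genes than were called here. That test therefore cannot judge the scaling when most genes differ. Replicates were compared, and every pair differed by more than sampling noise (chi-square per degree of freedom 4.69 to 34.9).

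The genes and lists were chosen with earlier results of these data known. By the rule for naming, every WNT gene may be named, with values in every library for called genes at least 2-fold changed and the most abundant of each role, and the 6 smallest p of each further list. Marker lists of epithelium, mesenchyme and immune cells are reported. Those of endothelium (0.670 to 1.80 CPM in Ctrl, 0.208 to 0.729 in YAP5SA), nerve and glia (4.62 to 5.42, 1.59 to 3.14), squamous cells (5.67 to 8.23, 1.97 to 3.83) and intestine (81.0 to 137, 18.7 to 27.7) gave the summed levels shown. Vil1 (8993 and 1613 counts in all) set the intestinal sum. It fell, as did Fabp2 (89 and 39), while Muc2 (41 and 204) rose. Mesothelial markers, which include Krt19 of the epithelial list, summed to 10255 to 10719 and 5975 to 6553 CPM. Krt19 and Msln set that sum and fell, while Upk3b (1849 and 8257 counts in all) and Wt1 (0 and 88) rose. Promoters and gene order are from RefSeq (GRCm38.p6), and lengths from GENCODE M21. Alternatives were RLE, upper quartile and library size scaling, DESeq2 1.42.0, limma-voom (limma 3.58.1), 2 other filters, the replicate number as a block, leaving out genes above 1% of a library, and leaving out each library.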

Additional observations from a re-analysis of the deposited data

Results flagged for a closer look

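Within a group of 4 libraries, a value was marked when its gap to the nearest of the others exceeded Dixon's 95% critical value for 4 samples, as a share of the range. Of 67 groups of values tested over the 34 genes, 5 were marked, where chance marks about 1 in 20. In YAP5SA replicate 4, Wnt7b was at 558 CPM against 434 to 443 in the others, Wnt7a at 118 CPM against 86.7 to 90.9, Fzd6 at 81.7 CPM against 59.9 to 63.5 and Fzd4 at 38.4 CPM against 53.9 to 55.6. Without that library the log2 fold changes were 3.01 for Wnt7b, 1.49 for Wnt7a, 0.67 for Fzd6 and -1.04 for Fzd4, all still called by edgeR. In Ctrl replicate 1, Tcf7 was at 2.54 CPM against 0.9997 to 1.23 CPM.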

How the results depend on the processing

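Of the 24 called WNT genes, 20 kept their direction and call under every alternative that could test them, 17 in number. Wnt10a, Axin1, Axin2 and Lrp6 lost the call in at least 1, with the values given beside them. Library size scaling moved the median of all genes from 0.02 to 0.19 on the log2 scale. With it the called falls were 8 of the other pathway genes (14 with TMM) and 3 of the target genes (5 with TMM). It reversed the sign of Wnt4 to 0.0844, of Dvl1 to 0.0474, of Dvl3 to 0.0602 and of Tcf7 to 0.0102, none of them called. Leaving out 1 library at a time gave -0.325 to 0.221 for Tcf7 (highest without Ctrl replicate 1), -0.0233 to 0.121 for Porcn (lowest without Ctrl replicate 2) and -0.0034 to 0.178 for Znrf3 (lowest without Ctrl replicate 3), none called. Wnt11 was called with DESeq2 (adjusted p = 0.0492), with no filter and with the replicate block, and Tcf7l1 with library size scaling (1.16, adjusted p = 0.0350), with limma-voom, with no filter and with the block. Leaving out 1 library gave 23 to 25 called WNT genes. Correlations of deviations between libraries with the same replicate number were 0.0988, 0.0601, 0.114 and 0.365. Replicates 1 and 4 correlated best with their own number, and replicates 2 and 3 with each other's. The match was thus partial, and the numbers were not taken to pair the samples in the main test. The replicate block gave 26 called WNT genes against 24, and 9174 called genes in all against 8907. With a minimum of 1 CPM in 4 libraries Wnt2 and Ror1 were not tested. Depth limits the genes not tested, which had at most 30 counts in a group.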
